A study of Mus musculus with 12 samples.

Results

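Platelet-derived growth factors (PDGFs) and their receptors form a small signalling family of 6 mouse genes, the ligand genes Pdgfa, Pdgfb, Pdgfc and Pdgfd and the receptor genes Pdgfra and Pdgfrb. They were chosen by gene symbol, and all 6 were among the 49671 genes of the count table and among the 17812 that passed the filter on low counts. Expression was measured by sequencing total RNA from formalin-fixed, paraffin-embedded mouse brain in 12 libraries, 3 in each of 4 groups. The tumour genotypes are IDH1_R132H, an isocitrate dehydrogenase mutant found in human gliomas, IDH1WT, its unmutated form, and PDGFA, the ligand itself, and the last group is normal brain. Every mouse, normal brains included, carried floxed alleles that include Cdkn2a and Atrx on the N::TVA background, in which the avian retrovirus receptor TVA is driven by the nestin promoter and so is made in neural progenitor cells. The normal brains were labelled TVA negative, so the receptor should not be assumed to be made in them. It is not stated whether tumours of the IDH1 groups were also given PDGFA, whether normal brain was mock treated, or how old the mice were, and the PDGFA group is therefore not known to be the only one that received the ligand. The stated purpose of the study was to place IDH1 mutant and wild-type tumours among the glioma subtypes, for which Pdgfra is a defining gene of the proneural type.

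PDGF chains pair into dimers that bring receptor chains together at the cell surface, and the paired receptor kinases phosphorylate each other and recruit adaptors that start the Ras, phosphatidylinositol 3-kinase and STAT pathways. PDGFRA binds the A, B and C chains, and PDGFRB binds mainly the B and D chains. In brain, PDGFRA is carried by oligodendrocyte precursor cells, which divide in response to the A chain made by neurons and astrocytes, while PDGFRB is carried by pericytes, which are drawn to vessels by the B chain of endothelial cells.

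Library totals ran between 6507923 and 14277395 counts. Loci resembling ribosomal RNA took 45.7% of counts in IDH1_R132H tumour 3, against 1.65% to 17.5% in the other 11 libraries, and on the first principal component (48.2% of variance) PDGFA tumour 1 lay at 45.5, among the normal brains at 42.3 to 45.8. Calls that these libraries decide are given with and without them. Normal brains 1 and 2 were far more alike than any other replicate pair, with a chi-square of 2.47 per gene between their counts against 11.5 to 307 in the other 11 pairs, so the spread among the normal brains may be partly technical. Nothing in the labels says that replicates are independent animals, and p-values measure the spread between these samples. Atrx remained at 212 to 299 counts per 1000000 counts (CPM) in tumours and 262 to 336 CPM in normal brains, and Cdkn2a was at 0 to 14 counts per tumour library and 1 count in each normal brain. Counts over whole genes check little about a deletion of part of a gene.

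Beside normal brain, the tumours had far more Pdgfra and more Pdgfa, and values of Pdgfb, Pdgfc, Pdgfd and Pdgfrb that did not pass the test. With the 3 tumour groups weighted equally, edgeR called 2 of the 6 members higher and 0 lower at an adjusted p under 0.05. Over all tested genes, 3.71% were called higher and 1.5% lower. The same 2 members had all 9 tumours above all 3 normal brains, an arrangement found higher in 4.67% of genes and lower in 2.84%. Group by group, 4 members were higher without overlap and 1 lower in IDH1_R132H tumours (19.4% and 18.8% of genes), 5 higher and 0 lower in IDH1WT tumours (17.4% and 14.5% of genes), and 3 higher and 1 lower in PDGFA tumours (8.23% and 7.54% of genes). The plot of CPM by library shows each member in each library.

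**Figure D1:**
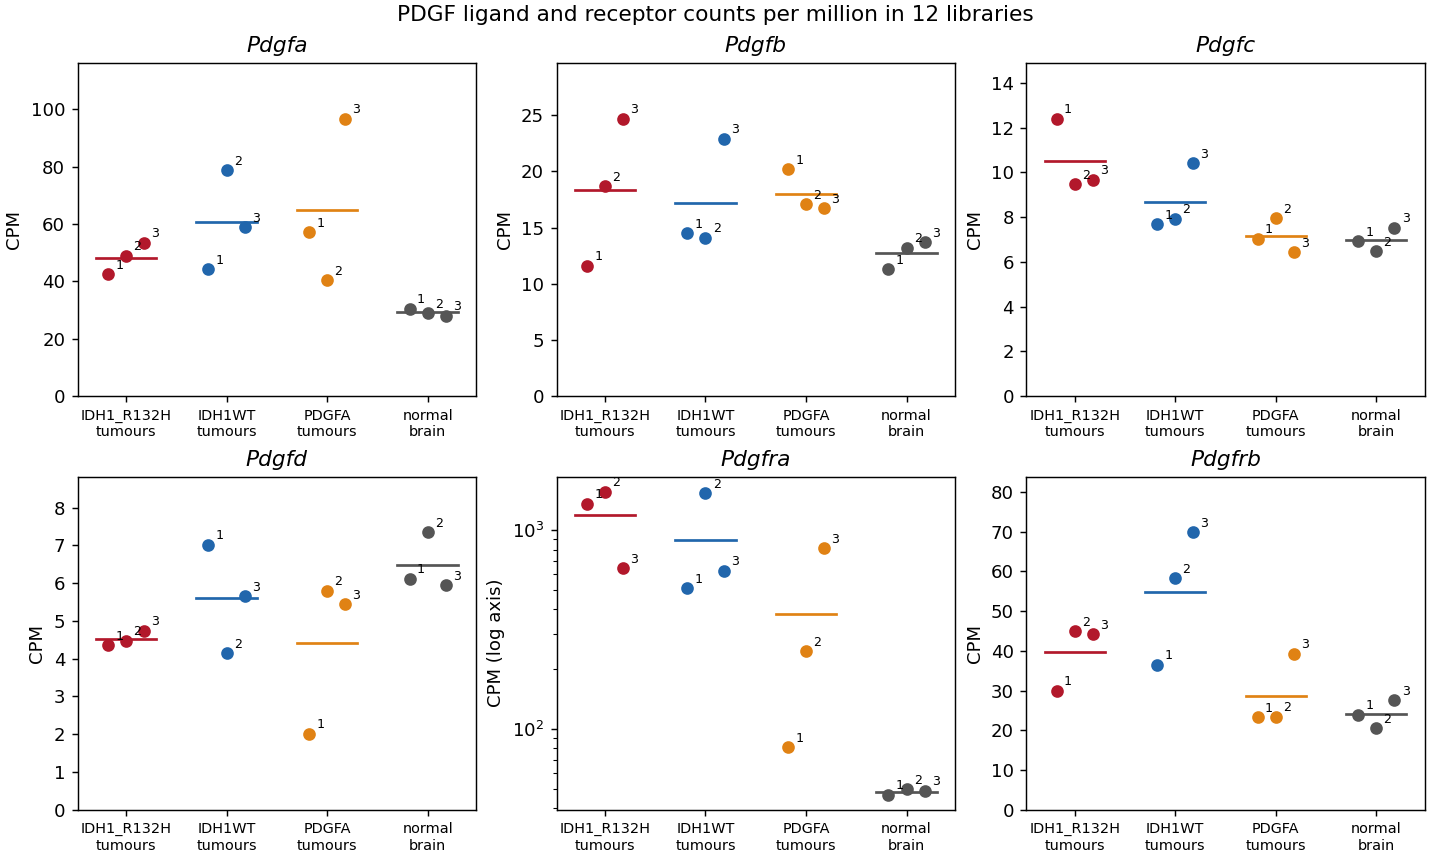
CPM (counts per 1000000 counts after TMM scaling) of each PDGF ligand and receptor gene in each library, for IDH1_R132H, IDH1WT and PDGFA tumours and normal brain; points are libraries, horizontal bars are group means, and the Pdgfra axis is logarithmic. Pdgfra spans 81.2 to 1560 CPM in tumours and 46.9 to 49.8 CPM in normal brains, and Pdgfa is above normal brain in every tumour.

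Pdgfra, the receptor of the A, B and C chains, was the most changed member. It stood at 1360, 1560 and 643 CPM in IDH1_R132H tumours 1 to 3, at 510, 1540 and 626 CPM in IDH1WT tumours 1 to 3 and at 81.2, 247 and 814 CPM in PDGFA tumours 1 to 3, against 46.9, 49.8 and 49 CPM in normal brains 1 to 3. All 9 tumours lay above all normal brains, the normal brains lay close together, and the tumours differed 19.3-fold among themselves, with 2 of the 3 PDGFA tumours lowest. The gene had 726 to 15368 reads in tumours and 406 to 560 in normal brains. The spread among normal brains, a CV of 3.13%, was of the size of the counting error of so many reads, while the tumours of a group had CVs of 40.7% to 101%. The tumours rose by 3.93 on the log2 scale (SE 0.685), or 15.2-fold, with an edgeR adjusted p of 0.016. With both IDH1_R132H tumour 3 and PDGFA tumour 1 dropped it was 4.18. The call rests on all 3 normal brains. Without normal brain 1, 2 or 3 the edgeR adjusted p was 0.11, 0.1 or 0.082. The log2 fold change was then 3.89, 3.93 or 3.93. With normal brains 1 and 2 summed into 1 library the edgeR adjusted p was 0.098. This loss was general: over the whole table edgeR called 0, 1 or 3 genes without normal brain 1, 2 or 3, and 0 with the sum. With all libraries in, DESeq2 gave Pdgfra an adjusted p of 1.8e-08.

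Group by group, Pdgfra averaged 1190 ± 483 CPM in IDH1_R132H tumours, 892 ± 564 CPM in IDH1WT tumours and 381 ± 384 CPM in PDGFA tumours, against 48.6 ± 1.52 CPM in normal brains (SD, n = 3 each). It was called higher in IDH1_R132H tumours than in normal brain by 4.61 in log2 units (SE 0.753, edgeR adjusted p = 0.014), the single member called there, where 4.83% of genes were called higher and 2.35% lower. It was likewise the single member called for IDH1WT tumours, at 4.2 (SE 0.738, edgeR adjusted p = 0.024), where 1.57% of genes were called higher and 0.152% lower. In PDGFA tumours the log2 fold change over normal brain was 2.97 (SE 0.699, edgeR adjusted p = 0.1), and 0 of 6 members were called, beside 0.258% of genes higher and 0.0449% lower. These 3 comparisons share their normal brains. PDGFA tumour 1, which lay among the normal brains on the first principal component, decides the last of them. Without that tumour Pdgfra was called at 3.45 (edgeR adjusted p = 0.0061) and Pdgfa at 1.24 (edgeR adjusted p = 0.04). DESeq2 called the same genes with all 3 PDGFA tumours in, at adjusted p-values of 0.0052 for Pdgfra and 0.0088 for Pdgfa, and limma with voom called 1 member. Over all genes DESeq2 called 471 and voom 436 in this comparison. Without PDGFA tumour 3, Pdgfra was at 1.76 (edgeR adjusted p = 0.36). The IDH1_R132H call was lost without IDH1_R132H tumour 2 (edgeR adjusted p = 0.055), and the IDH1WT call without IDH1WT tumour 2 (3.55, edgeR adjusted p = 0.093) or IDH1WT tumour 3 (edgeR adjusted p = 0.06). Both calls were also lost without any single normal brain.

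Pdgfrb, the pericyte receptor, moved less. It stood at 30, 44.9 and 44.2 CPM in IDH1_R132H tumours 1 to 3, at 36.5, 58.3 and 69.9 CPM in IDH1WT tumours 1 to 3 and at 23.3, 23.4 and 39.3 CPM in PDGFA tumours 1 to 3, against 23.9, 20.6 and 27.6 CPM in normal brains 1 to 3. All IDH1_R132H and IDH1WT tumours and PDGFA tumour 3 lay above the normal brains, and the other PDGFA tumours lay among them. Over all tumours the log2 fold change was 0.72 (SE 0.233, edgeR adjusted p = 0.087), which did not pass the test. DESeq2 called it at an adjusted p of 0.029, as did edgeR without IDH1WT tumour 1 (0.044) or without PDGFA tumour 1 (0.048). The edgeR adjusted p was 0.29, 0.32 and 0.18 without normal brain 1, 2 or 3, and 0.3 with normal brains 1 and 2 summed. Of 20 alternatives, 5 called it. The IDH1WT tumours were at 1.19 over normal brain (SE 0.276, edgeR adjusted p = 0.051), the IDH1_R132H tumours at 0.72 (SE 0.276, edgeR adjusted p = 0.12) and the PDGFA tumours at 0.25 (SE 0.275, edgeR adjusted p = 0.82). For IDH1WT tumours DESeq2 called Pdgfrb at an adjusted p of 0.0023, and 9 of 20 alternatives called it.

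Pdgfa, the ligand of precursor cells and the gene that names one tumour group, was the other member that rose. It stood at 42.4, 49 and 53.5 CPM in IDH1_R132H tumours 1 to 3, at 44.3, 78.7 and 58.9 CPM in IDH1WT tumours 1 to 3 and at 57.1, 40.4 and 96.7 CPM in PDGFA tumours 1 to 3, against 30.5, 28.9 and 28.1 CPM in normal brains 1 to 3. Every tumour was above every normal brain, but the PDGFA tumours overlapped both IDH1 groups, with the highest and the lowest of the 9 tumours both among them. Tumours over normal brain came to a log2 value of 0.98 (SE 0.244, edgeR adjusted p = 0.04). By group it was 0.73 in IDH1_R132H tumours (SE 0.284, edgeR adjusted p = 0.13), 1.05 in IDH1WT tumours (SE 0.284, edgeR adjusted p = 0.075) and 1.15 in PDGFA tumours (SE 0.284, edgeR adjusted p = 0.12), none of which passed. The pooled call was near its threshold: the adjusted p was 0.051, 0.073 and 0.051 without IDH1_R132H tumour 1, 2 or 3, 0.054 and 0.06 without IDH1WT tumour 2 or 3, 0.17, 0.18 and 0.15 without normal brain 1, 2 or 3, and 0.17 with normal brains 1 and 2 summed, while DESeq2 gave 0.0018. On the deposited log2 values Pdgfa was at 0.16 (SE 0.0811, limma adjusted p = 0.34). Pdgfa overlaps an antisense gene, 6330403L08Rik, at 17 CPM in tumours and 19.9 CPM in normal brains (log2 fold change -0.23, edgeR adjusted p = 0.47). The counts do not tell the mouse gene from any virus-borne Pdgfa that aligns to it.

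Pdgfb, the endothelial ligand of PDGFRB, stood at 11.6, 18.7 and 24.7 CPM in IDH1_R132H tumours 1 to 3, at 14.5, 14.1 and 22.9 CPM in IDH1WT tumours 1 to 3 and at 20.2, 17.1 and 16.7 CPM in PDGFA tumours 1 to 3, against 11.3, 13.2 and 13.7 CPM in normal brains 1 to 3. Of the 9 tumours, 8 were above the normal brains and IDH1_R132H tumour 1 was among them. The log2 fold change was 0.48 (SE 0.224, edgeR adjusted p = 0.22).

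Pdgfc and Pdgfd encode chains that are secreted with a CUB domain and become active when it is cut off outside the cell. Pdgfc stood at 12.4, 9.46 and 9.67 CPM in IDH1_R132H tumours 1 to 3, at 7.69, 7.93 and 10.4 CPM in IDH1WT tumours 1 to 3 and at 7.04, 7.96 and 6.43 CPM in PDGFA tumours 1 to 3, against 6.93, 6.48 and 7.53 CPM in normal brains 1 to 3. The IDH1_R132H and IDH1WT tumours were all above the normal brains, whereas the PDGFA tumours lay above, among and below them. Over all tumours the log2 fold change was 0.31 (SE 0.176, edgeR adjusted p = 0.3), and in IDH1_R132H tumours it was 0.59 (SE 0.213, edgeR adjusted p = 0.11).

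Pdgfd, a ligand of PDGFRB, was the only member with a fold change below 0 over all tumours. It stood at 4.36, 4.48 and 4.74 CPM in IDH1_R132H tumours 1 to 3, at 7.02, 4.15 and 5.65 CPM in IDH1WT tumours 1 to 3 and at 2.01, 5.8 and 5.44 CPM in PDGFA tumours 1 to 3, against 6.12, 7.35 and 5.95 CPM in normal brains 1 to 3. Of the 9 tumours, 8 were below the normal brains and IDH1WT tumour 1 was among them. These values rest on 18 to 106 reads per library, and the log2 fold change was -0.42 (SE 0.275, edgeR adjusted p = 0.38).

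**Figure D2:**
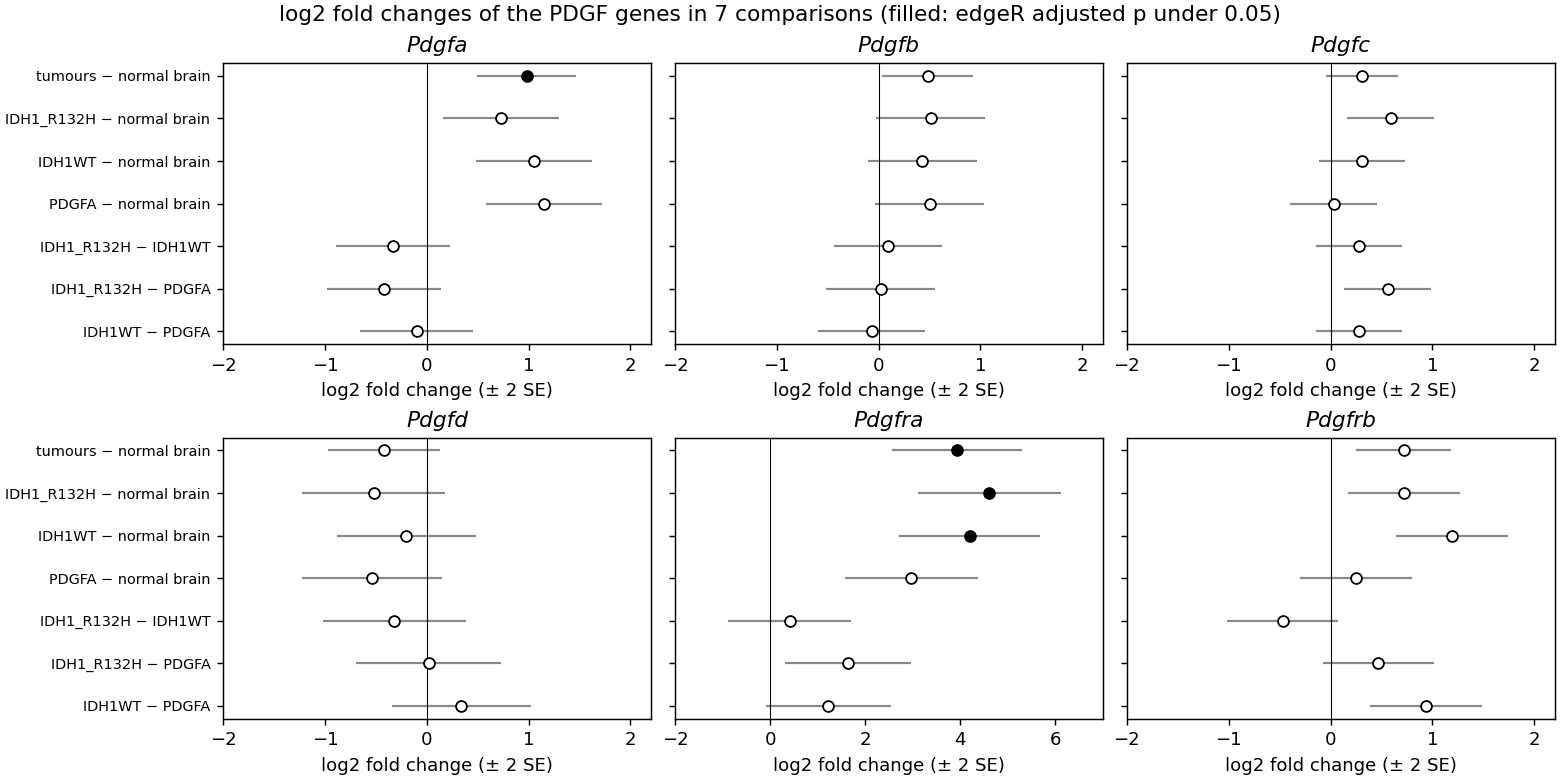
Log2 fold change of each PDGF ligand and receptor gene in 7 comparisons, the first-named group over the second, with bars of 2 SE either side; filled points had an edgeR adjusted p under 0.05. Filled points are Pdgfra and Pdgfa for all tumours over normal brain, and Pdgfra for IDH1_R132H and for IDH1WT tumours over normal brain.

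Between tumour groups edgeR called 0 of 6 members in each of the 3 pairs, beside 0% of genes called in each. At an unadjusted p under 0.05 there were 0 members and 475 genes for IDH1_R132H over IDH1WT, 2 members and 1940 genes for IDH1_R132H over PDGFA, and 1 member and 1038 genes for IDH1WT over PDGFA. DESeq2 called 0 members in each pair and 0, 128 and 10 genes, and limma with voom called 0, 1 and 0 members and 0, 396 and 0 genes. The intervals below are the estimate with 2 SE either side, and they show which sizes of difference the libraries leave room for.

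The mutant and wild-type IDH1 tumours overlapped for all 6 members, as did IDH1WT and PDGFA tumours, while 6.75% and 8.32% of genes had no overlap. Pdgfra was at 0.42 for IDH1_R132H over IDH1WT (interval -0.88 to 1.71). It was 1.07 without IDH1WT tumour 2 and 0.72 without IDH1_R132H tumour 3, and 0.31, 0.17, 0.15 and 0.23 without IDH1_R132H tumour 1 or 2 or IDH1WT tumour 1 or 3, in each case uncalled; limma with voom gave 0.87, also uncalled. The other receptor, Pdgfrb, was at -0.47 (-1.01 to 0.08). Among ligands Pdgfa was at -0.33 (-0.89 to 0.23), Pdgfb at 0.09 (-0.45 to 0.62), Pdgfc at 0.28 (-0.14 to 0.7) and Pdgfd at -0.32 (-1.02 to 0.38).

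The 2 members with an unadjusted p under 0.05 between IDH1_R132H and PDGFA tumours were Pdgfra and Pdgfc. Pdgfra was at 1.64 (interval 0.32 to 2.97, edgeR adjusted p = 0.41), and its groups overlapped, since PDGFA tumour 3 at 814 CPM was above IDH1_R132H tumour 3 at 643 CPM. The log2 fold change was 1.15 (edgeR adjusted p = 0.69) without PDGFA tumour 1 and 1.48 (edgeR adjusted p = 0.53) without that tumour and IDH1_R132H tumour 3. Without IDH1_R132H tumour 2 it was 1.38 (edgeR adjusted p = 0.66) and without PDGFA tumour 3 it was 2.85 (edgeR adjusted p = 0.053). Limma with voom, which weights the libraries unequally, called Pdgfra at 2.42 (limma adjusted p = 0.036). It gave IDH1_R132H tumour 2, with the highest Pdgfra, a weight of 3.19. PDGFA tumours 1 and 3 had weights of 0.327 and 0.38. Pdgfc was at 0.56 (interval 0.13 to 0.98, edgeR adjusted p = 0.4), and it was the member whose 3 IDH1_R132H tumours were all above the 3 PDGFA tumours, an arrangement found in 5.86% of genes. Pdgfa, the ligand for which the PDGFA group is named, was at -0.42 for IDH1_R132H over PDGFA tumours (interval -0.98 to 0.14, edgeR adjusted p = 0.61) and at -0.1 for IDH1WT over PDGFA tumours (interval -0.65 to 0.46, edgeR adjusted p = 0.97). The member with an unadjusted p under 0.05 between IDH1WT and PDGFA tumours was Pdgfrb, at 0.94 (interval 0.39 to 1.48, unadjusted p = 0.0048, edgeR adjusted p = 0.81). Its groups overlapped, with IDH1WT tumour 1 at 36.5 CPM and PDGFA tumour 3 at 39.3 CPM.

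The promoters of the genes called over all tumours are shown because these are the members whose RNA rose. The sequences are the 250 bases before the transcription start in RefSeq (build GRCm38.p6). The windows used here covered 4 of the 6 members, and Pdgfb and Pdgfrb were left out. Capitals mark matches to 5 motifs searched on both strands: the GC box, spelled GGGCGG, the CCAAT box, the TATA box, spelled TATAAA, the E-box, spelled CANNTG and bound by basic helix-loop-helix factors such as OLIG2, and the SOX core, spelled ACAAAG. None of the 5 motifs contains another.
Pdgfra, chr5:75152001-75152250, plus strand: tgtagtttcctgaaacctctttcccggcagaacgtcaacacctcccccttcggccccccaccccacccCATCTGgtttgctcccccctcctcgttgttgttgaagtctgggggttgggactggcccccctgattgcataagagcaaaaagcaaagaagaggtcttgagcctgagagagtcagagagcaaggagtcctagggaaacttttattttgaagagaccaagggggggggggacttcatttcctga
Pdgfa, first start, chr5:138994282-138994531, minus strand: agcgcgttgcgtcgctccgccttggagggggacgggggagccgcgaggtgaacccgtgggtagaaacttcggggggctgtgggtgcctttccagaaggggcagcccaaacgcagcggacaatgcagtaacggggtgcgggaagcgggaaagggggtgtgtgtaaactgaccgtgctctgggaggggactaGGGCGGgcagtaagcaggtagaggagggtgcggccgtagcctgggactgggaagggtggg
Pdgfa, second start, chr5:138994945-138995194, minus strand: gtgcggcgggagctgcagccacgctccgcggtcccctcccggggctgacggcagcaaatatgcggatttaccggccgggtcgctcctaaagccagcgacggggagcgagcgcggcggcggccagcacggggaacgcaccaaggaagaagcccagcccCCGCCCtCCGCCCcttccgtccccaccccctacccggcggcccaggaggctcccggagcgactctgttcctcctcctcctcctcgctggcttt
The Pdgfra window held 1 E-box, 4 CpG sites and 54.4% G and C, and none of the other motifs. The Pdgfa windows held 1 and 2 GC boxes, 19 and 28 CpG sites and 66.4% and 72.4% G and C. Over 32807 windows of the same length, 66.2% held the E-box, 32.7% the GC box, 33.8% the CCAAT box, 12.4% the TATA box and 16.5% the SOX core, the median G and C content was 52.4% and the median number of CpG sites was 6. Pdgfra thus lay near the median and both Pdgfa windows in the GC-rich part of the distribution, and a match describes letters only.

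The genes lie apart in the genome. On GRCm38, Pdgfra (ENSMUSG00000029231) spans chr5:75152292-75198215 on the plus strand, Pdgfa (ENSMUSG00000025856) chr5:138976014-138997370 on the minus strand and Pdgfrb (ENSMUSG00000024620) chr18:61045150-61085061 on the plus strand. Pdgfb (ENSMUSG00000000489) spans chr15:79995874-80014977 on the minus strand, Pdgfc (ENSMUSG00000028019) chr3:81036416-81214040 on the plus strand and Pdgfd (ENSMUSG00000032006) chr9:6168584-6378850 on the plus strand. The locus of Pdgfra holds Kit, the receptor of stem cell factor, 376.7 kb away. For all tumours over normal brain, 4199 of all 17812 tested genes had an unadjusted p under 0.05. EdgeR called 929 genes, DESeq2 1993 and limma with voom 6005, and the neighbour counts stand beside these totals. Within 500 kb of Pdgfra 5 other genes were tested and edgeR called 0, with 2 at an unadjusted p under 0.05, 0 called by DESeq2 and 4 by limma with voom. Kit was at a log2 fold change of -0.14 (edgeR adjusted p = 0.65) and Chic2 on the other side at 0.4 (edgeR adjusted p = 0.18). Of the 16 tested neighbours of Pdgfrb edgeR called 0, with 5 at an unadjusted p under 0.05, 2 called by DESeq2 and 8 by voom. Among them is Csf1r, the receptor of microglia, which lies 15.5 kb away and was at 0.66 (edgeR adjusted p = 0.48). Of the 15 neighbours of Pdgfa edgeR called 0 (3 at an unadjusted p under 0.05, 0 by DESeq2, 3 by voom), and of the 2 of Pdgfc 0 (0 at an unadjusted p under 0.05, 0 by DESeq2, 1 by voom). No gene within 500 kb of Pdgfd was tested. Near Pdgfb, of 24 neighbours 1 rose, Apobec3 at 1.81 (edgeR adjusted p = 0.047), and 1 fell, Cbx7 at -0.66 (edgeR adjusted p = 0.038).

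Divided by the length of each gene's exons, levels can be set side by side. In tumours the order was Pdgfra at 81.9 ± 54.7, Pdgfa at 18.6 ± 5.96, Pdgfrb at 7.5 ± 2.84, Pdgfb at 4.29 ± 1.02, Pdgfc at 1.73 ± 0.369 and Pdgfd at 1.54 ± 0.442 CPM per kb (SD, n = 9). In normal brains it was Pdgfa at 9.35 ± 0.392, Pdgfra at 4.85 ± 0.152, Pdgfrb at 4.39 ± 0.633, Pdgfb at 3.06 ± 0.304, Pdgfd at 2.05 ± 0.243 and Pdgfc at 1.37 ± 0.104 CPM per kb (SD, n = 3). In tumours, libraries overlapped between the neighbours Pdgfra and Pdgfa, Pdgfrb and Pdgfb, and Pdgfc and Pdgfd. In normal brains they overlapped between Pdgfra and Pdgfrb. The receptor Pdgfra thus stood above its ligand Pdgfa in 8 of 9 tumours and below it in the normal brains.

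Per kb of exon, the ratio of Pdgfra to Pdgfa was 9.98, 9.92 and 3.74 for IDH1_R132H tumours 1 to 3, 3.58, 6.09 and 3.31 for IDH1WT tumours 1 to 3 and 0.442, 1.9 and 2.62 in PDGFA tumours 1 to 3, against 0.479, 0.537 and 0.543 in normal brains 1 to 3. PDGFA tumour 1 was the tumour below the normal brains. Of the summed receptor level, Pdgfra made up 65.6% to 96.1% in tumours (median 88.8%) and 49.3% to 56.9% in normal brains. Of the summed ligand level, Pdgfa made up 63.3% to 81.6% in tumours (median 66.9%) and 57.5% to 61.9% in normal brains. Pdgfd made up 2.53% to 10.4% of the ligand level in tumours and 12% to 14.6% in normal brains, with all 9 tumours below the normal brains. The sum of the ligands was 20.2 to 38 CPM per kb in tumours and 15.7 to 16 CPM per kb in normal brains, while the sum of the receptors was 12.3 to 164 CPM per kb in tumours and 8.74 to 9.92 CPM per kb in normal brains. The receptor sum therefore varied far more among tumours than the ligand sum, and most of it was Pdgfra. Gene by gene, Pdgfra varied 19.3-fold among tumours and Pdgfrb 3.01-fold. The ligands varied between 1.93-fold (Pdgfc) and 3.49-fold (Pdgfd).

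**Figure D3:**
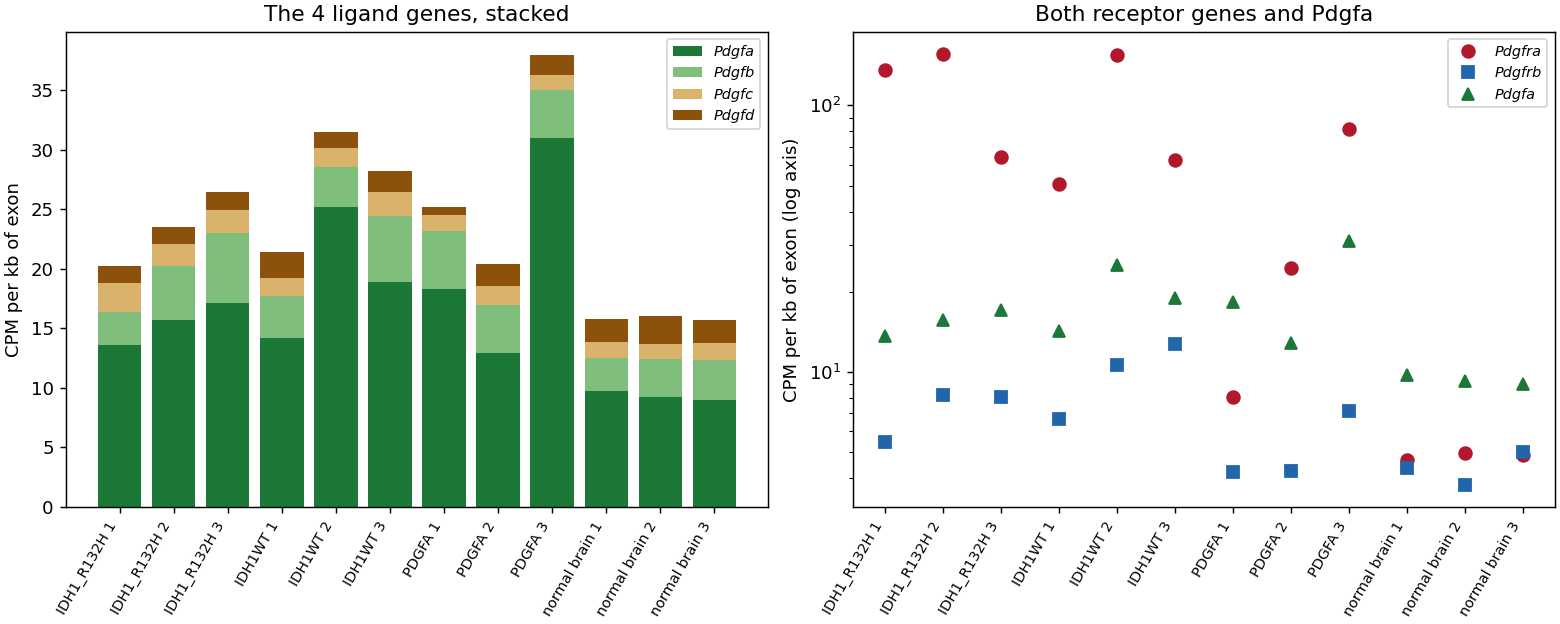
Levels per length in each library, in CPM per kb of exon: left, the 4 ligands stacked; right, Pdgfra, Pdgfrb and Pdgfa on a logarithmic axis. Pdgfra lies above Pdgfa in 8 of 9 tumours, and below it in PDGFA tumour 1 and the normal brains.

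In bulk tissue more cells of a type and more RNA per cell cannot be told apart. Markers of the cells that carry each member were therefore set beside it. For all tumours over normal brain, 4199 of all 17812 tested genes had an unadjusted p under 0.05, DESeq2 called 1993 and voom 6005. The list counts below stand beside these totals. The summed level of 14 other oligodendrocyte precursor markers was 2980 to 6770 CPM in IDH1_R132H tumours, 2130 to 5990 CPM in IDH1WT tumours and 800 to 3740 CPM in PDGFA tumours, against 614 to 671 CPM in normal brains. Of these markers 13 rose over all tumours and 0 fell, with a median log2 fold change of 2.79 beside -0.01 over all genes. For this and every other marker and pathway list described here, edgeR called 0 genes without normal brain 1, 2 or 3, or with normal brains 1 and 2 summed. Over the whole table it then called 0, 1, 3 and 0 genes, and Pdgfra was not among the calls. Among the precursor markers Olig2, the lineage transcription factor, was at 3.37 (SE 0.517, edgeR adjusted p = 0.012). Sox10 was at 2.91 (SE 0.47, edgeR adjusted p = 0.015) and the NG2 proteoglycan gene Cspg4 at 3.88 (SE 0.633, edgeR adjusted p = 0.015). Pdgfra per CPM of these markers was 0.237, 0.231 and 0.216 for IDH1_R132H tumours 1 to 3, 0.239, 0.257 and 0.19 for IDH1WT tumours 1 to 3 and 0.102, 0.174 and 0.218 in PDGFA tumours 1 to 3, against 0.0699, 0.0745 and 0.0799 in normal brains 1 to 3. All 9 tumours were above the normal brains in this ratio as well, and the part of precursor cell number in the Pdgfra values was not tested. The genes most like Pdgfra over the 9 tumours, of 10132 compared, were Cspg4 (Pearson r = 0.992), Rab31 (0.991) and Smoc1 (0.991). This is a description only, and the tumour content of the libraries was not measured.

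For Pdgfrb the summed level of 10 pericyte markers was 296 to 368 CPM in IDH1_R132H tumours, 310 to 480 CPM in IDH1WT tumours and 199 to 298 CPM in PDGFA tumours, against 168 to 179 CPM in normal brains. Of the 10 markers 3 rose over all tumours and 0 fell (median log2 fold change 0.9), namely Mcam at 1.62, Abcc9 at 1.51 and Rgs5 at 0.77. The count was 5 with IDH1_R132H tumour 3 and PDGFA tumour 1 left out, 5 without PDGFA tumour 1 alone, and 0 without any single normal brain. Pdgfrb per CPM of pericyte markers was 0.101 to 0.155 in tumours and 0.117 to 0.154 in normal brains, with overlap. EdgeR called 0 of 6 tested smooth muscle markers and 0 of 9 tested fibroblast markers, with 1 of each list at an unadjusted p under 0.05. DESeq2 called 0 of either list, and limma with voom called 1 smooth muscle marker higher and 1 lower and 2 fibroblast markers higher. The fibroblast sum was 109 to 209 CPM in IDH1_R132H tumours, 142 to 237 CPM in IDH1WT tumours and 47.5 to 274 CPM in PDGFA tumours, against 87.4 to 171 CPM in normal brains. The genes most like Pdgfrb were Postn (r = 0.99), Abcc9 (0.98), a pericyte channel subunit, and Lamc1 (0.973), a basement membrane laminin chain. The part of pericyte number in the Pdgfrb values was not tested.

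For Pdgfb the 13 endothelial markers summed to 280 to 309 CPM in IDH1_R132H tumours, 326 to 395 CPM in IDH1WT tumours and 282 to 391 CPM in PDGFA tumours, against 217 to 240 CPM in normal brains. Of these, 5 rose and 0 fell (median 0.69), among them Vwf at 1.62 (edgeR adjusted p = 0.012) and Esam at 0.88 (edgeR adjusted p = 0.016). The count was 2 without IDH1_R132H tumour 2 or IDH1WT tumour 3, 3 without IDH1WT tumour 2 and 0 without any single normal brain. Pdgfb per 1000 CPM of endothelial markers was 41.4 to 84.2 in tumours and 47.9 to 60.8 in normal brains, with overlap. Of the platelet markers, the other classical source of PDGF, 3 of 6 passed the filter, and edgeR, DESeq2 and voom called 0, with 0 at an unadjusted p under 0.05. The genes most like Pdgfb over tumours were Myo1e (r = 0.93), Pdcd6ip (0.919) and Plekhg5 (0.916). Those most like Pdgfa were Hsf2 (0.949), Ncapd2 (0.914) and Actl6a (0.912), those most like Pdgfc were Rpn1 (0.85), Zfp605 (0.813) and Ltbp1 (0.811), and those most like Pdgfd were Acot11 (0.98), Prex2 (0.977) and Cables1 (0.966).

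**Figure D4:**
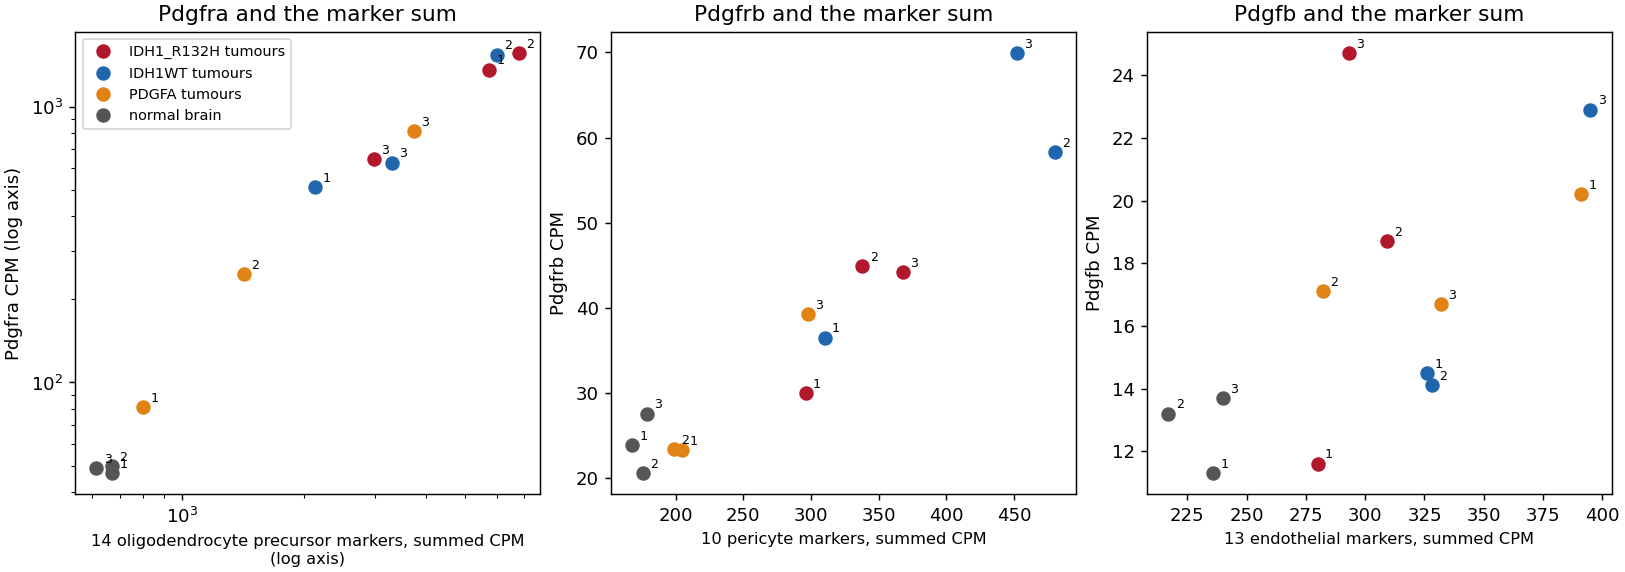
Pdgfra against the sum of 14 oligodendrocyte precursor markers (both axes logarithmic), Pdgfrb against the sum of 10 pericyte markers and Pdgfb against the sum of 13 endothelial markers, in CPM, 1 point per library. Pdgfra runs with its marker sum across tumours, and all tumours have higher sums of each list than the normal brains.

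Other cell types were set beside the PDGF genes too. The 11 neuronal markers summed to 3300 to 6940 CPM in IDH1_R132H tumours, 2920 to 5650 CPM in IDH1WT tumours and 3070 to 7690 CPM in PDGFA tumours, against 6490 to 6850 CPM in normal brains. Of the 9 tumours, 7 had a neuronal sum below those of the normal brains and 2 had one above them. Of these markers edgeR called 0 with all libraries in (2 at an unadjusted p under 0.05), 3 lower without PDGFA tumour 1 and 6 lower without that tumour and IDH1_R132H tumour 3, while DESeq2 called 0 and limma with voom 8 lower. The 12 microglia and macrophage markers summed to 39.6 to 384 CPM in tumours and 99.9 to 184 CPM in normal brains. Of these edgeR called 0 with all libraries in (6 at an unadjusted p under 0.05) and 6 higher without PDGFA tumour 1, with or without IDH1_R132H tumour 3, while DESeq2 called 3 higher and voom 8 higher. Of 10 astrocyte markers 1, Gfap, was called higher at 2.2 (edgeR adjusted p = 0.049), and 0 were called when any library other than PDGFA tumour 1 was left out. Of the 11 proliferation genes 9 rose, with a median log2 fold change of 3.51. EdgeR called 0 of 9 myelinating oligodendrocyte markers, 0 of 6 red blood cell markers and 0 of 6 choroid plexus markers, with 3, 0 and 1 of them at an unadjusted p under 0.05. DESeq2 called 2 myelinating markers higher and 0 of the other lists, and voom called 2 myelinating markers higher and 1 lower, 0 red blood cell markers and 5 choroid plexus markers lower. Without PDGFA tumour 3 edgeR called 2 myelinating markers higher, and without IDH1WT tumour 1 it called 1 choroid plexus marker lower. PDGFA tumour 1 had an astrocyte sum of 1010 CPM and a myelinating oligodendrocyte sum of 11200 CPM. The normal brains had 4910 to 5010 and 3370 to 3430 CPM. The precursor sum of PDGFA tumour 1 was 800 CPM, close to the 614 to 671 CPM of the normal brains. Its proliferation sum was 117 CPM, against 14.2 to 22.9 CPM. How much normal tissue that library holds was not tested. Of 6 T cell markers 0 passed the filter. The part of these cell types in the PDGF values was not tested.

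Genes that act on the ligands were mostly not called. Of 12 genes for processing and binding PDGF chains 1 rose and 0 fell (median 0.31). The gene that rose was Plat, tissue plasminogen activator, which cuts the CUB domain from the C chain; it averaged 42.8 CPM in tumours and 22.7 CPM in normal brains, a log2 value of 0.91 (SE 0.177, edgeR adjusted p = 0.019). Plau, urokinase, which acts on the D chain, was at -1.22 (edgeR adjusted p = 0.089), and Furin, one of the proteases that mature the A and B chains inside the cell, was at -0.06 (edgeR adjusted p = 0.81). Lrp1, a receptor that pairs with PDGFRB, was at 0.63 (edgeR adjusted p = 0.14). With IDH1_R132H tumour 3 and PDGFA tumour 1 left out, or PDGFA tumour 1 alone, 4 genes of this list were called higher, and without any single normal brain 0 were.

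Of 24 genes for signalling next to the receptors 4 rose and 0 fell (median 0.09). They were the Src family kinase gene Fyn at 1.47 (SE 0.272, edgeR adjusted p = 0.017), the adaptor Gab1 at 1.4 (SE 0.279, edgeR adjusted p = 0.021), Stat3 at 1.25 (SE 0.266, edgeR adjusted p = 0.025) and Pik3r1, the regulatory subunit of phosphatidylinositol 3-kinase, at 0.69 (SE 0.184, edgeR adjusted p = 0.049). The count was 8 without IDH1_R132H tumour 3 and PDGFA tumour 1, 7 without PDGFA tumour 1 alone, and 0 without any single normal brain. The genes of the core complex, Grb2 at 0.04, Sos1 at 0.01, Ptpn11 at 0.08 and Plcg1 at 0.01, had log2 fold changes near that of all genes. Of 11 genes that restrain the receptors edgeR called 0 with all libraries in (2 at an unadjusted p under 0.05) and 2 higher without PDGFA tumour 1, with or without IDH1_R132H tumour 3. DESeq2 called 1 higher, and voom 2 higher and 1 lower. Socs3, a feedback inhibitor of STAT signalling, was at 1.27 (edgeR adjusted p = 0.097) and Cbl, a ubiquitin ligase for the receptors, at 0.5 (edgeR adjusted p = 0.13).

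Few of the nearest relatives were called. Of 8 other class III receptor kinase and ligand genes 0 rose and 1 fell, Flt3 at -1 (SE 0.234, edgeR adjusted p = 0.033). The count lower was 0 without IDH1_R132H tumour 2, IDH1WT tumour 2 or 3, PDGFA tumour 2 or any normal brain, 2 without IDH1_R132H tumour 3 or PDGFA tumour 3, and 3 without IDH1WT tumour 1 or PDGFA tumour 1. Its relative Kit was at -0.14, and Kitl, the ligand of Kit, at -0.62 (edgeR adjusted p = 0.055). In IDH1_R132H tumours 3 of them were called lower, Flt3 at -1.49, Kitl at -1 and Il34 at -0.95. Of 8 vascular endothelial growth factor genes, relatives of the PDGF chains, 2 rose and 0 fell, the receptors Kdr at 1.22 (SE 0.197, edgeR adjusted p = 0.015) and Flt4 at 1.11 (SE 0.242, edgeR adjusted p = 0.027), while the ligand Vegfa was at 1.27 (SE 0.352, edgeR adjusted p = 0.056). For this list 1 rose without IDH1_R132H tumour 2, and 1 fell without IDH1_R132H tumour 3. The plot of relatives sets them beside the 6 PDGF genes.

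**Figure D5:**
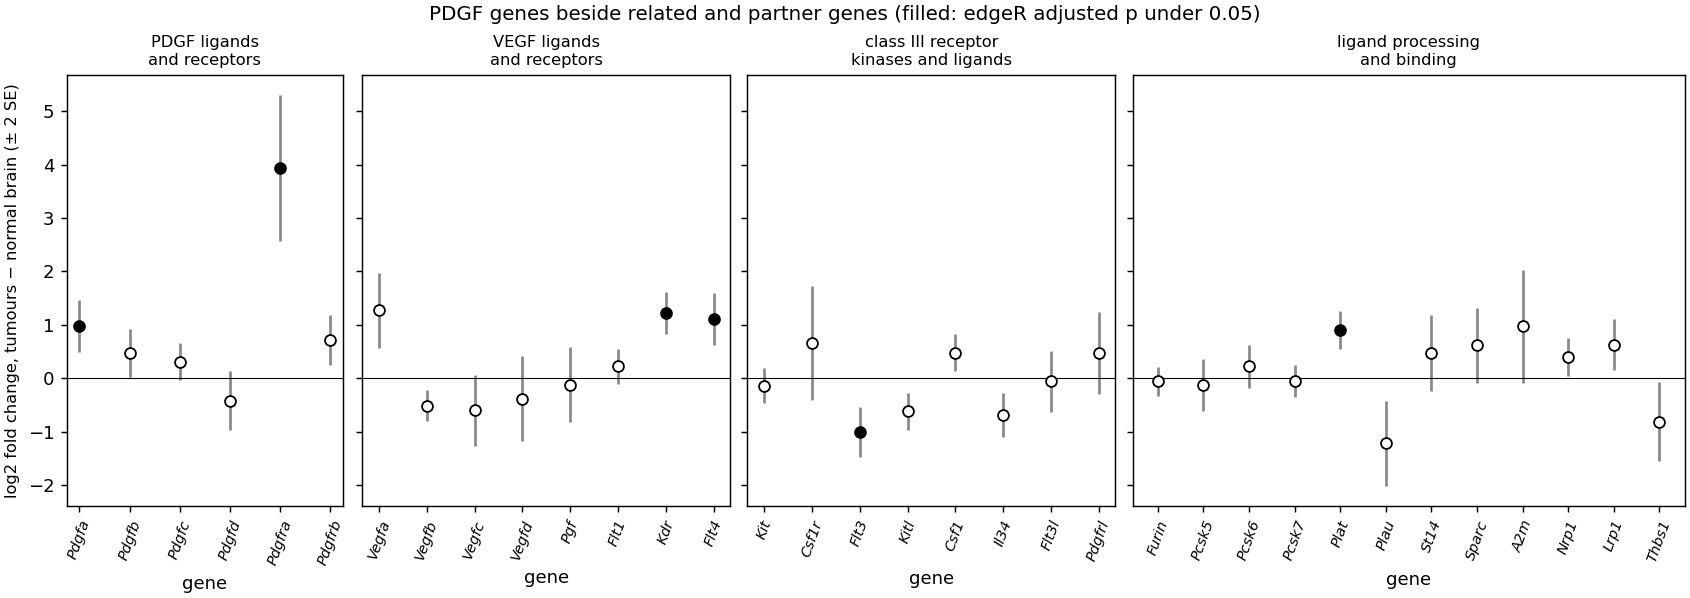
Log2 fold change of all tumours over normal brain for the 6 PDGF genes, vascular endothelial growth factor genes, other class III receptor kinase and ligand genes and ligand processing genes, with bars of 2 SE either side. Pdgfra at 3.93 stands farthest from 0.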

How the data were processed

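Total RNA of 12 fixed brain samples was sequenced. The authors deposited raw read counts per gene, made on GRCm38 with STAR 2.5.2b, Subread and featureCounts 1.5.1 per the submitters' processing notes, which also name DESeq2 1.16.1. A deposited table of log2 values for 23792 genes was used as an alternative only. The strand setting is not given in the sources used here. Columns were tied to samples by their names. Replicate numbers follow record order and pair nothing.

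Genes were filtered with filterByExpr (minimum count 10, minimum total 15), leaving 17812, scaled by TMM and fitted with edgeR 4.0.16 (robust quasi-likelihood, 1 coefficient per group, 8 residual degrees of freedom) in R 4.3.3. Adjusted p-values are Benjamini-Hochberg over all tested genes, called under 0.05, for 7 comparisons. DESeq2 1.42.0 and limma 3.58.1 were alternatives, and the procedure was tested on simulated data. Limma with voom gave its largest weights to normal brain 1, IDH1_R132H tumour 2 and normal brain 2 (3.38, 3.19 and 3.06). Its calls over normal brain thus lean on the 2 normal brains that were most alike. Symbols and exon lengths are from GENCODE M21. Depth per library limits Pdgfd most.

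The members, gene lists and tests were chosen with earlier results of these data known. Named genes are the 6 members, the 3 genes of each list with the smallest p, the 3 genes most like each member over tumours (log2 CPM, prior count 2, mean of at least 3) and the nearest tested neighbours; other genes were chosen after their values were seen.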

Additional observations from a re-analysis of the deposited data

How the results depend on the processing

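No paired analysis was possible because the labels give no replicate numbers. Over the 6 members and 7 comparisons, the alternatives other than leaving out 1 library kept direction and side of the threshold in 288 of 336 values, and leaving out 1 library did so in 455 of 504; 30 and 11 gained a call, 5 and 20 lost one, and 13 and 18 changed sign. The causes were not tested.

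For all tumours over normal brain the number of members called was 2, with 5 by limma with voom and sample weights, 1 by limma on the deposited log2 values, 0 with normal brains 1 and 2 summed, and 0 to 3 without 1 library. The number of genes called was 929, with 1993 by DESeq2, 2204 with no low count filter, 6005 by voom, 2928 with IDH1_R132H tumour 3 and PDGFA tumour 1 left out (chosen after seeing the data), 0 with those normal brains summed, and 0 to 2536 without 1 library. Members called over normal brain numbered 1 for IDH1_R132H (5 by voom, 0 with normal brains summed, 0 to 2 without 1 library) and 1 for IDH1WT (2 with RLE size factors or without loci resembling ribosomal RNA, 3 by DESeq2, with no filter, by voom or without those 2 tumours, 0 with normal brains summed, 0 to 3 without 1 library). Genes called numbered 1278 for IDH1_R132H (7320 by voom) and 307 for IDH1WT (1225 by DESeq2, 1555 with no filter, 3008 by voom). For PDGFA the members called numbered 0 (2 by DESeq2, with no filter or without those 2 tumours, 1 by voom, 0 to 2 without 1 library). Genes called for PDGFA numbered 54 (471 by DESeq2, 958 with no filter, 436 by voom). For IDH1_R132H over PDGFA 1 member was called with no filter and by voom, beside 627 and 396 genes. For IDH1WT over PDGFA 1 was called with no filter, beside 261 genes. Leaving out 1 library gave 0 to 0 members in each pair of tumour groups.

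All values that changed sign were uncalled. For IDH1_R132H over IDH1WT, Pdgfb was at -0.1 by voom, -0.17 without those 2 tumours and -0.18 to 0.36 without 1 library, and Pdgfa at 0.03 on the deposited log2 values. For IDH1_R132H over PDGFA, Pdgfb was at -0.04 with no filter, -0.03 by voom, -0.01 on the deposited log2 values, -0.15 without those 2 tumours and -0.26 to 0.27 without 1 library, and Pdgfd at -0.05 with no filter, -0.14 by voom, -0.35 without those 2 tumours and -0.33 to 0.26 without 1 library. For IDH1WT over PDGFA, Pdgfa was at 0.23 by voom and -0.36 to 0.3 without 1 library, Pdgfb at 0.08 by voom, 0.02 without those 2 tumours and -0.34 to 0.05 without 1 library, and Pdgfd at 0 to 0.58 without 1 library. For PDGFA over normal brain, leaving out 1 library gave Pdgfc at -0.05 to 0.11 and Pdgfrb at -0.04 to 0.38.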
